A study of Mus musculus with 24 samples.

Results

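Antioxidant enzymes and the paraoxonases were followed in the livers of tumor-bearing mice through 10 genes: Srxn1, Msrb1, Pon1, Pon3, Cat, Sod1, Gpx1, Prdx1, Txnrd1 and Gclc. They were looked up on the array by Entrez identifier through the platform's annotation, in which 8 of the 10, out of 8727 genes with a probe, had a probe, 1 for each gene. Pon1 and Prdx1 had no matched probe and are not analysed here. Male C57Bl/6 mice, 8 weeks old, were injected under the skin with 1000000 tumor cells of the line LL/2(LLC1), suspended in 300 µl of phosphate-buffered saline (PBS), or with 300 µl of PBS alone. The line comes from a Lewis lung carcinoma and grows in mice of this strain. Livers were collected after 18, 72 and 192 h, and a total RNA sample of tumor-group liver and a sample of PBS-group liver were hybridised together on a dual-colour oligonucleotide array. There were 4 such pairs at each of the 3 times, 12 in all, each on an array and its dye swap, 24 arrays in all. By the labels the pairs are biological replicates, but whether a liver sample comes from 1 animal or a pool is not given, so that p-values measure only the spread between these pairs.

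These enzymes work as linked chains. Superoxide dismutase turns superoxide into hydrogen peroxide, and catalase, glutathione peroxidase and the peroxiredoxins break the peroxide down. Glutathione and thioredoxin supply the electrons for glutathione peroxidase and the peroxiredoxins. Glutamate-cysteine ligase makes the glutathione precursor, and thioredoxin reductase recharges thioredoxin. Sulfiredoxin restores overoxidised peroxiredoxins, and methionine sulfoxide reductase repairs oxidised methionine in proteins. Several of these genes are textbook targets of NRF2, a transcription factor that binds antioxidant response elements in their promoters. The paraoxonases are lactone- and ester-cleaving enzymes that the liver makes and that travel largely on high-density lipoprotein.

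Promoters are shown for Srxn1 and Txnrd1, textbook NRF2 targets that could be tested at every time, because a motif that was searched for lies before a start of each. The sequences are RefSeq's on build GRCm38.p6, the 250 bases before an annotated transcript start, written 5' to 3' on the gene's strand. Capitals mark TGACNNNGC, the core of the antioxidant response element, or TGANTCA, the AP-1 core with any base in the middle, searched on both strands. The Srxn1 window is chr2:152105274-152105523, plus strand, and the Txnrd1 window is chr10:82858956-82859205, plus strand, before 1 of its 3 annotated starts.
Srxn1: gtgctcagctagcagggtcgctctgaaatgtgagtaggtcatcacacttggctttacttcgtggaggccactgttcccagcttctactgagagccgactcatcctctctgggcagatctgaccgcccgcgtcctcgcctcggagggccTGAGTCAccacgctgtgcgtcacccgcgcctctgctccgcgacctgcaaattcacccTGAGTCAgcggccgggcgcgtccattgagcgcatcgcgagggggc
Txnrd1: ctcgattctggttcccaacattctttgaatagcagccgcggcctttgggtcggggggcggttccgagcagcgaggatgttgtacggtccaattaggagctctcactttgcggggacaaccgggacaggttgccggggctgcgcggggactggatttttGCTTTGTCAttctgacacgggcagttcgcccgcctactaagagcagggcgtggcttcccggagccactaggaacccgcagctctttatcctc
The Srxn1 window held TGAGTCA at 102 and at 45 bases before the start. The site at 45 is followed by gc, so it differs from TGACNNNGC only by a G in place of the C. The Txnrd1 window held the response-element core on the opposite strand, as GCTTTGTCA, 92 bases before the start. In windows of 300 bases that also take in the first 50 after the start, 12.4% of all 32851 RefSeq promoters held TGACNNNGC and 7.81% held TGANTCA. RefSeq windows were found for 9 of the 10 genes, 11 windows in all. TGACNNNGC was present in windows of Srxn1 (GCTAGGTCA, 28 bases after the start), Pon3 (TGACCTTGC, 26 after), Txnrd1, Sod1 (GCGTGGTCA, 56 before) and Prdx1 (GCTGAGTCA, 133 before, overlapping an AP-1 core). TGANTCA was present in windows of Srxn1, Pon3 and Prdx1. In Pon3 it read TGAATCA, with A in the middle where the AP-1 core has C or G. Neither motif was in the windows of Cat, Gpx1, Msrb1 and Pon1. A match is a description of the letters in these windows.

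The values are the authors' deposited log ratios, which were averaged here over the dye-swapped arrays of a pair, so that each pair counts once. Signed values are written as tumor over PBS, a direction that is likely but not stated: it rests on reading the scans' channel A as Cy3 and on the deposited values following the scan ratios turned that way (correlations of 0.51 to 0.84 per array). With the opposite reading, all signs would be reversed. The scale of the deposited values is not stated either. They behaved as log2 ratios of intensities with background left in, which had slopes of 0.79 to 1.04 on the deposited values. Background-subtracted ratios had steeper slopes of 1.29 to 2.03 on them, which are regression slopes and not ratios of size. Deposited ratios therefore understate a difference for a dim spot. An array carried between 977 and 8894 values, centred near 0 (medians -0.03 to 0.01), and the number of arrays limits the precision. Across probes, the ratios of dye-swapped arrays correlated negatively in 9 of 12 pairs (-0.42 to 0.63), and single arrays are read here only beside their dye swap. Pair 1 at 192 h stood apart with the highest of these correlations. In bulk liver RNA, fewer cells of a type and less RNA per cell cannot be told apart.

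Over the mean of the 3 times, the 5 members with enough measured pairs all had lower ratios in tumor livers, by 0.13 to 0.18 on the log2 scale, and none passed the test across all probes. These were Cat, Srxn1, Txnrd1, Pon3 and Msrb1, whose pair ratios are given below by role. A probe was tested at a time where both dye orientations were measured in at least 3 of the 4 pairs. In limma's fit with Benjamini-Hochberg adjustment, 0 of 1362 probes passed an adjusted p of 0.05 over the mean of the times (0.00%), and 128 (9.40%) had an unadjusted p under 0.05, 98 of them with a negative ratio. The median of the 5 members was -0.14, against -0.01 for all probes tested. A negative mean ratio was found for 58.0% of all probes tested, and a negative ratio with an unadjusted p under 0.05 for 7.20%. Of the 5 members, 4 (all but Pon3) had a negative ratio at each of the 3 times, as did 25.8% of all probes tested. All 5 had a negative mean ratio with such a p (unadjusted p between 0.018 and 0.047, adjusted p between 0.504 and 0.513). The genes were chosen with earlier results of these data known, so this count is a description and no independent support.

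**Figure D1:**
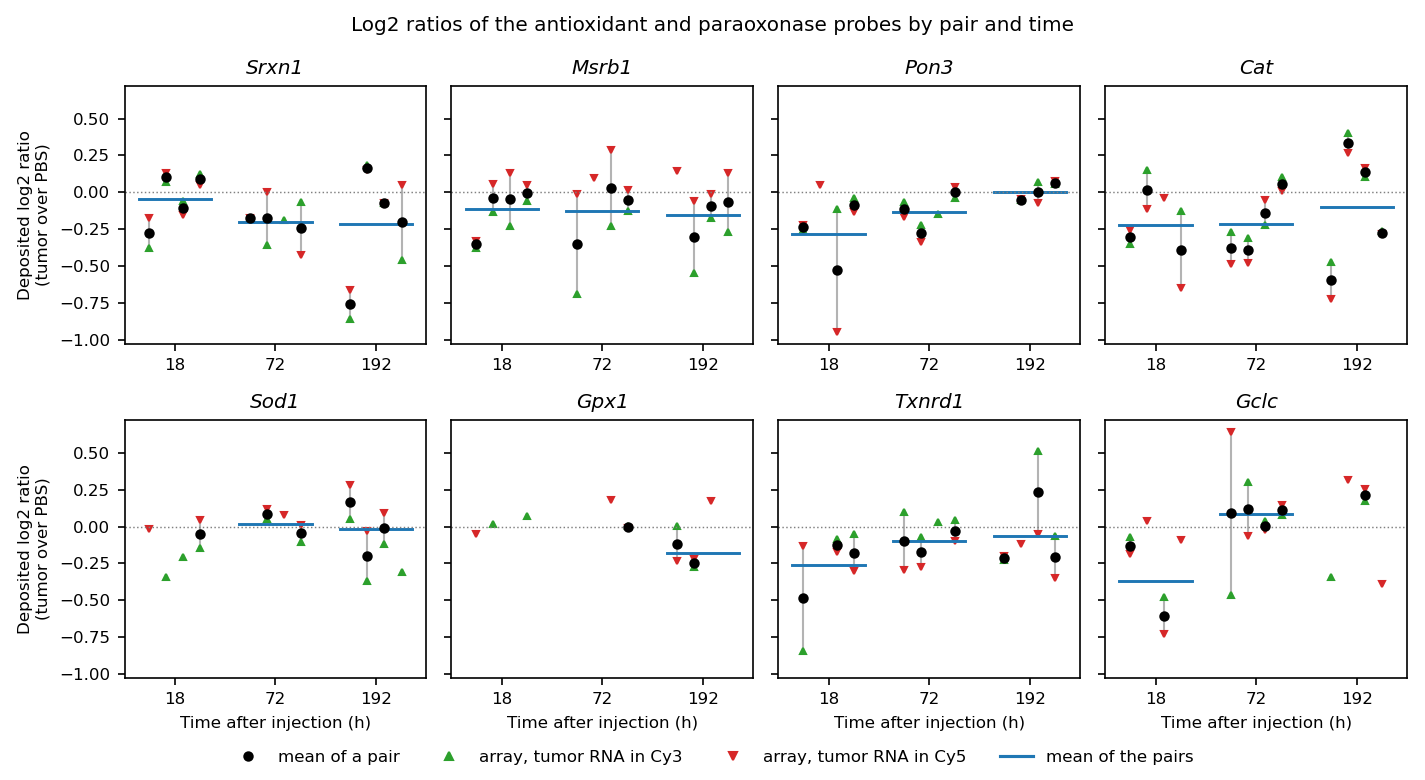
Deposited log2 ratios, tumor over PBS, of the 8 members' probes (vertical axis) by time after injection (horizontal axis, h). Black points are pair means, triangles are the single arrays of each dye orientation, grey lines join the arrays of a pair and blue lines are the means where 2 or more pairs were measured. Most pair means of Srxn1, Msrb1, Pon3, Cat and Txnrd1 lie below 0, and few points are present for Sod1 and Gpx1.

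**Figure D2:**
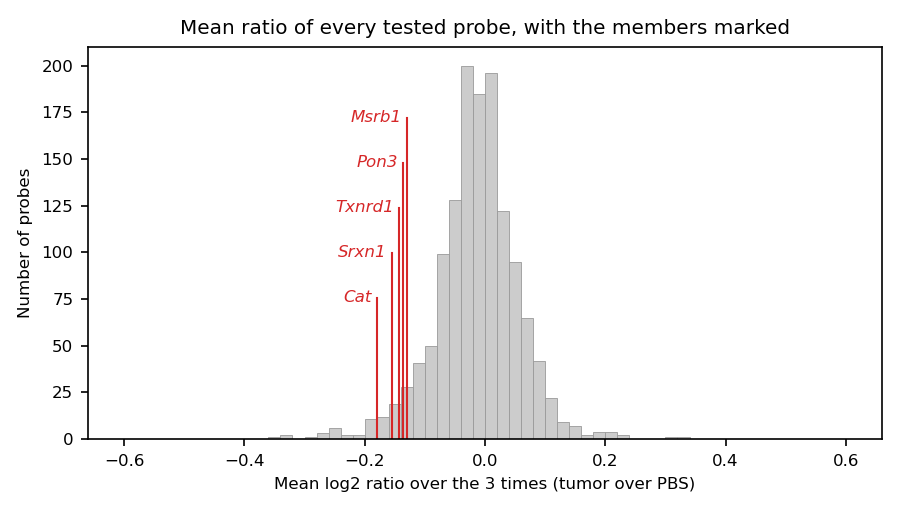
Number of probes (vertical axis) by mean log2 ratio over the 3 times (horizontal axis) for the 1362 probes tested, with the 5 tested members marked by red lines, whose heights carry no value. All 5 lie between -0.18 and -0.13, to the left of the median of -0.01.

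Among the peroxide-removing enzymes, Cat, the peroxisomal catalase, had the most negative mean ratio of the members. Its pair ratios at 18 h were -0.30, 0.02 and -0.39 in replicates 1, 2 and 4, replicate 3 lacking a value in 1 dye. At 72 h they were -0.38, -0.39, -0.14 and 0.06 in replicates 1 to 4. At 192 h they were -0.60, 0.33, 0.13 and -0.27. The tumor livers were thus lower in 7 of 11 pairs and higher in 4, with both directions present at every time. The fitted ratios were -0.23 ± 0.15 (SE, n = 3 pairs, adjusted p = 0.716) at 18 h, -0.21 ± 0.13 (n = 4, adjusted p = 0.877) at 72 h and -0.10 ± 0.13 (n = 4, adjusted p = 0.999) at 192 h. Over the times the ratio was -0.18 ± 0.08 (adjusted p = 0.513). Both dye orientations gave the same sign in 10 of the 11 pairs. The median distance between dye-swapped arrays was 0.17, and replicate 4 at 18 h read -0.65 and -0.13. Pair means ranged from -0.60 to 0.33. A median distance and a range are unlike measures, so they do not rank the spread of pairs against that of dyes. Without replicate 1 the 192 h ratio of Cat was 0.06.

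Gpx1, the cytosolic selenium-dependent glutathione peroxidase, had deposited values on 11 of 24 arrays and both orientations in 3 pairs, and was not tested. Those pairs stood at -0.005 (replicate 4 at 72 h), -0.12 and -0.25 (replicates 1 and 2 at 192 h). The scanner tables measured its spot on all 24 arrays. The spot was saturated in at least 1 of the 3 scans on every array and in all scans on 14, of which 13 carried no deposited value. Sod1, the cytosolic copper-zinc superoxide dismutase that feeds peroxide to these enzymes, had a like gap: 7 of its 24 measured spots were saturated in every scan, and these 7 carried no deposited value. Over all probes, a deposited value was missing for 65.7% of spots saturated in every scan and for 12.9% of spots saturated in none. Sod1 could be tested only at 192 h, where replicates 1 to 3 stood at 0.16, -0.20 and -0.01 and the fitted ratio was -0.02 ± 0.08 (SE, n = 3, adjusted p = 0.999). At 18 h its only complete pair stood at -0.05, and at 72 h the complete pairs stood at 0.08 and -0.05.

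Both genes could be followed at every time in ratios computed from the scanner intensities, with saturated scans left out wherever another scan was usable. Sod1 had ratios of 0.03 ± 0.15, 0.20 ± 0.15 and -0.07 ± 0.15 at 18, 72 and 192 h (SE, n = 4 pairs each, adjusted p = 0.986, 0.739 and 0.999 in limma's fit). Gpx1 had 0.09 ± 0.15, 0.28 ± 0.15 and -0.18 ± 0.14 (n = 4 each, adjusted p = 0.947, 0.625 and 0.999). Each was higher in 7 of 12 pairs and lower in 5, and neither mean over the times was negative: 0.05 ± 0.09 for Sod1 and 0.06 ± 0.08 for Gpx1. Where every scan of a spot was saturated, the scan ratio rests on saturated intensities. On arrays without a deposited value, all of this kind, scan ratios ran from -0.95 to 0.88 for Gpx1 and from -0.82 to 0.90 for Sod1. They include the Gpx1 arrays with tumor RNA in Cy3 at 72 h, at 0.87, 0.88 and 0.84 in replicates 1 to 3. The counts and means from the scans rest partly on such spots, and their error was not tested.

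In the thioredoxin branch, Txnrd1, the cytosolic thioredoxin reductase, had lower ratios in 8 of 9 pairs. Its pairs at 18 h stood at -0.49, -0.13 and -0.18 in replicates 1, 3 and 4. At 72 h, replicates 1, 2 and 4 stood at -0.10, -0.17 and -0.03. At 192 h, replicates 1, 3 and 4 stood at -0.21, 0.23 and -0.21, where replicate 3 was the single higher pair. The fitted ratio was -0.26 ± 0.10 (SE, n = 3) at 18 h, with an unadjusted p of 0.021 from limma and an adjusted p of 0.586. It was -0.10 ± 0.09 (n = 3, adjusted p = 0.919) at 72 h and -0.06 ± 0.10 (n = 3, adjusted p = 0.999) at 192 h. Without replicate 1 the 18 h ratio was -0.15. The mean over the times was -0.14 ± 0.06 (adjusted p = 0.510). The size differed by dye: all 10 arrays with tumor RNA in Cy5 were negative (median -0.19), and 6 of 10 with tumor RNA in Cy3 (median -0.06). Both orientations had the same sign in 6 of the 9 pairs. Over all probes with 10 or more arrays of tumor RNA in Cy5, 3.26% were negative on every one. From the scanner intensities the ratios were -0.31 ± 0.17, -0.34 ± 0.17 and -0.20 ± 0.14 at 18, 72 and 192 h (adjusted p = 0.795, 0.625 and 0.999). There the dyes disagreed in sign in replicates 3 and 4 at 18 h, replicate 1 at 72 h and replicates 2 to 4 at 192 h. Replicate 2 at 192 h read -0.94 with tumor RNA in Cy5 and 0.81 in Cy3. Total signal at the Txnrd1 spot had a median of 2.09 times its background. What remained of a dye effect in these pair means was not tested.

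Srxn1, sulfiredoxin, had lower ratios in 8 of 11 pairs. At 18 h the pairs lay on both sides of 0, at -0.27, 0.10, -0.11 and 0.09 in replicates 1 to 4. At 72 h the measured replicates 1, 2 and 4 lay close together, at -0.18, -0.18 and -0.24. At 192 h they spread most, at -0.76, 0.17, -0.07 and -0.20 in replicates 1 to 4, and replicate 1 was the lowest pair ratio of any member. The fitted ratios were -0.05 ± 0.11 (SE, n = 4, adjusted p = 0.937), -0.20 ± 0.13 (n = 3, adjusted p = 0.877) and -0.22 ± 0.11 (n = 4, adjusted p = 0.999) at 18, 72 and 192 h. The order of these 3 values lies within their errors: 192 h against 18 h differed by -0.17 ± 0.16 (adjusted p = 0.999). Without replicate 1 at 192 h the ratio at that time was -0.04 and the mean over the times moved from -0.16 ± 0.07 (adjusted p = 0.513) to -0.10. Both dye orientations had the same sign in 9 of 11 pairs.

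Msrb1, a selenoprotein that reduces the R form of methionine sulfoxide, had lower ratios in 9 of 10 pairs. At 18 h its pairs stood at -0.35, -0.04, -0.05 and -0.004 in replicates 1 to 4, all negative but only replicate 1 far from 0. At 72 h, replicates 1, 3 and 4 stood at -0.35, 0.03 and -0.05. At 192 h, replicates 2, 3 and 4 stood at -0.30, -0.09 and -0.07. In each time 1 pair carried most of the mean. The fitted ratios were -0.11 ± 0.07 (SE, n = 4, adjusted p = 0.717), -0.12 ± 0.09 (n = 3, adjusted p = 0.877) and -0.16 ± 0.09 (n = 3, adjusted p = 0.999). Without replicate 1 the ratio was -0.03 at 18 h and -0.01 at 72 h. Over the times it was -0.13 ± 0.05 (adjusted p = 0.504). From the scanner intensities the ratios were -0.06 ± 0.11, -0.05 ± 0.11 and -0.40 ± 0.12 (adjusted p = 0.967, 0.914 and 0.999), and the contrast of 192 h with 18 h was -0.35 ± 0.16 (adjusted p = 0.997) against -0.04 ± 0.12 in the deposited ratios. The orientations differed: all 10 arrays with tumor RNA in Cy3 were negative (median -0.23), while 8 of 12 with tumor RNA in Cy5 were positive (median 0.05). Among all probes with 10 or more arrays with tumor RNA in Cy3, 2.19% were negative on every one. Averaging dye swaps cancels a constant dye effect; what remained of it in these pair means was not tested.

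Pon3, a paraoxonase of liver and plasma that hydrolyses lactones, gave the smallest p of the members at any time, at 18 h. Replicates 1, 3 and 4 stood at -0.24, -0.53 and -0.09, all lower in tumor livers. Replicate 2 had a value only with tumor RNA in Cy5, which was positive at 0.05, and so gave no pair ratio. The fitted ratio was -0.28 ± 0.08 (SE, n = 3), with an unadjusted p of 0.0062, rank 18 of 2862 probes, and an adjusted p of 0.586. At 18 h 0 of 2862 probes passed the adjusted threshold in limma (0.00%), 217 (7.58%) had an unadjusted p under 0.05, and 4.58% had one with a negative ratio, as Pon3 and Txnrd1 did among the 5 members tested. In 18.0% of probes every measured pair was negative at 18 h, as for Pon3, Msrb1 and Txnrd1. Replicate 3 weighed most: with tumor RNA in Cy5 its array read -0.95, with tumor RNA in Cy3 -0.11, and without that pair the ratio was -0.16.

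At 72 h Pon3 stood at -0.12, -0.28 and -0.001 in replicates 1, 2 and 4, and at 192 h at -0.05, -0.001 and 0.065 in replicates 2 to 4. The fitted ratios were -0.13 ± 0.08 (n = 3, adjusted p = 0.877) and 0.005 ± 0.08 (n = 3, adjusted p = 0.999), so the values lay nearer 0 at the later times. The difference between 192 h and 18 h was 0.29 ± 0.12, with an unadjusted p of 0.035 and an adjusted p of 0.999 in limma. Of 1588 probes tested in that contrast 0 passed (0.00%), 62 (3.90%) had an unadjusted p under 0.05, and 1.76% had one with a positive difference. The same contrast was 0.20 ± 0.14 for Txnrd1, 0.12 ± 0.20 for Cat and -0.04 ± 0.12 for Msrb1 (adjusted p = 0.999 for each). Without replicate 3 at 18 h the Pon3 contrast was 0.17, and without replicate 3 at 192 h that of Txnrd1 was 0.05. Over the mean of the times Pon3 stood at -0.14 ± 0.05 (adjusted p = 0.504). From the scanner intensities, with background subtracted, its ratios were larger, at -0.66 ± 0.15 (adjusted p = 0.589), -0.24 ± 0.15 (adjusted p = 0.675) and -0.01 ± 0.15 (adjusted p = 0.999) at 18, 72 and 192 h. Total signal at the Pon3 spot had a median of 2.54 times its background.

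Gclc, the catalytic subunit of glutamate-cysteine ligase, had deposited pair ratios above 0 in 5 of 7 pairs, and scanner ratios above 0 in 5 of 9. Its complete pairs at 18 h, replicates 1 and 3, stood at -0.13 and -0.60. At 72 h all 4 pairs were positive, at 0.09, 0.12, 0.01 and 0.11, and at 192 h its only complete pair, replicate 3, stood at 0.21. It was tested only at 72 h, with 0.08 ± 0.07 (SE, n = 4, adjusted p = 0.919). There 0 of 3390 probes passed in limma (0.00%), 172 (5.07%) had an unadjusted p under 0.05, and 9.03% were positive in every measured pair. The dyes disagreed in sign in 3 of those 4 pairs. With tumor RNA in Cy5 and in Cy3 the arrays read 0.64 and -0.46 in replicate 1, -0.07 and 0.30 in replicate 2, and -0.03 and 0.04 in replicate 3. From the scanner intensities Gclc stood at 0.31 ± 0.18 at 72 h and at -0.31 ± 0.20 at 192 h (n = 4 and 3 pairs, adjusted p = 0.647 and 0.999).

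**Figure D3:**
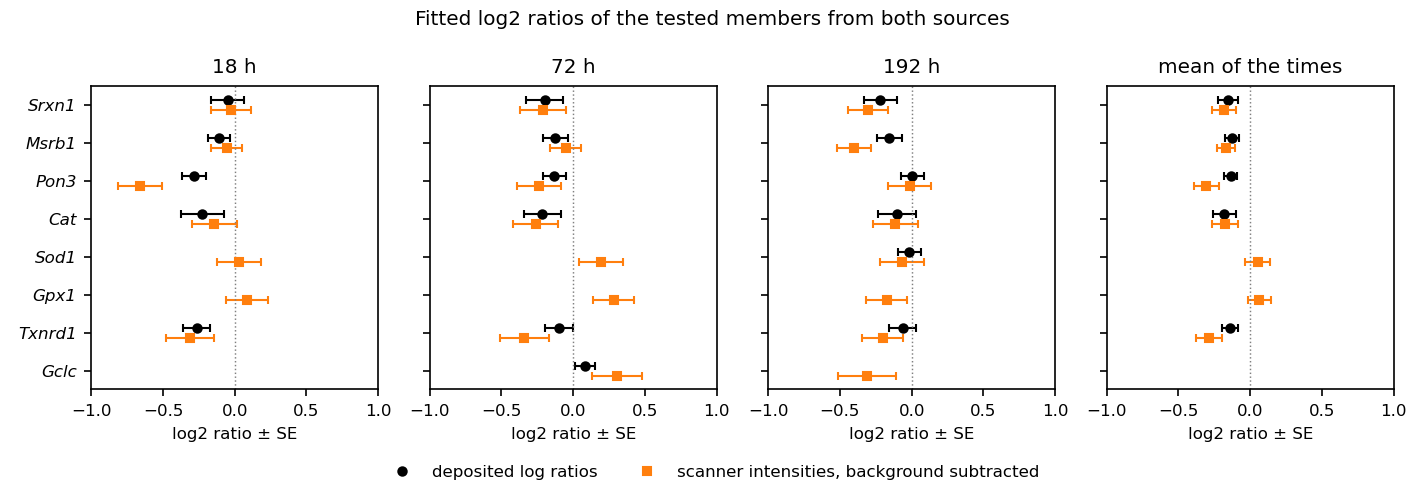
Fitted log2 ratios, tumor over PBS, with standard errors (horizontal axis) for each member (vertical axis) at 18, 72 and 192 h and over the mean of the times, from the deposited log ratios (black circles) and from the background-subtracted scanner intensities (orange squares). A missing point was not tested in that source. The 5 members tested over the mean of the times in the deposited ratios are negative in both sources there, and Sod1 and Gpx1 are near 0.

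Across times, the 5 members tested at 18 h all had negative ratios, with a median of -0.23 against -0.01 for all 2862 probes, of which 53.6% were negative. At 72 h 5 of 6 were negative, with a median of -0.13 against -0.01 and 57.6% of all 3390 probes negative. At 192 h 5 of 6 were negative, with a median of -0.08 against -0.004 and 52.6% of all 2030 probes negative. At 192 h 0 probes passed in limma (0.00%) and 61 (3.00%) had an unadjusted p under 0.05, none of them a member. By pair, the median of the measured members was lowest in replicate 1 at 18 h (-0.29), replicate 2 at 72 h (-0.18) and replicate 1 at 192 h (-0.21), and highest in replicate 2 at 18 h (0.02), replicate 3 at 72 h (0.01) and replicate 3 at 192 h (-0.001). The median of all probes ran from -0.02 (replicate 1 at 192 h) to 0.01 (replicate 4 at 192 h). Over the times 15 of 17 member ratios were negative in replicates numbered 1, 9 of 15 in those numbered 2, 10 of 15 in those numbered 3 and 15 of 19 in those numbered 4. Genes of a pair share their RNA and arrays, so these counts are not separate observations. The share of negative ratios over all probes was not counted by pair. The labels do not say that a replicate number means the same thing at different times.

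Other genes of the same systems were taken from lists, and 0 of their probes passed the test at any time or over the mean of the times, so each value here is a measurement without a call. Among peroxiredoxins and thioredoxins 4 of 14 listed genes had a probe, and 2 of 4 tested were negative at 18 h and 3 of 3 over the mean of the times. Txn1, thioredoxin itself, the substrate of Txnrd1, stood at -0.17 ± 0.05 (SE, n = 4, adjusted p = 0.586) at 18 h and -0.09 ± 0.03 (adjusted p = 0.504) over the times. In glutathione synthesis and use 8 of 14 had a probe, but only 2 could be tested at 18 h. Gclm, the regulatory partner of Gclc, stood at -0.36 ± 0.09 (n = 3, adjusted p = 0.586) at 18 h and at 0.12 ± 0.09 (adjusted p = 0.999) at 192 h, and Gsr, glutathione reductase, at -0.01 ± 0.05 (adjusted p = 0.959) at 18 h. The untested Gclc pairs at 18 h were negative as well.

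Among further NRF2 regulators and targets 14 of 23 had a probe, and of 11 tested at 18 h 7 were positive and 4 negative, with a median of 0.03. The highest was Tkt, the transketolase of the pentose phosphate pathway, at 0.23 ± 0.08 (SE, n = 3, adjusted p = 0.586), and the lowest was Bach1, a repressor of these targets, at -0.07 ± 0.05 (n = 3, adjusted p = 0.728). Over the mean of the times 3 were negative and 3 positive. Among other selenoproteins and the genes of selenocysteine synthesis 10 of 16 had a probe, and 5 of 6 tested were negative at 18 h, with a median of -0.14. Selenop, the plasma selenium carrier made by the liver, was the lowest at -0.16 ± 0.11 (n = 3, adjusted p = 0.728) and Selenow the highest at 0.12 ± 0.05 (n = 3, adjusted p = 0.586). At 72 h the list stood at 3 negative and 3 positive. For paraoxonase 2 and partners of high-density lipoprotein 2 of 5 genes had a probe, 1 negative and 1 positive at 18 h (median 0.04). Pla2g7, a lipoprotein-associated phospholipase, stood at 0.16 ± 0.09 (n = 3, adjusted p = 0.682) at 18 h. Pon2, the intracellular paraoxonase, stood at -0.08 ± 0.07 (n = 3, adjusted p = 0.739) at 18 h and -0.12 ± 0.07 (adjusted p = 0.877) at 72 h.

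Genes that produce peroxide include oxidases of the peroxisome, where catalase sits. Uox, urate oxidase, stood at -0.25 ± 0.09 (SE, adjusted p = 0.504) over the mean of the times and was negative in 8 of 12 pairs. Hao1, the hydroxyacid oxidase, stood at -0.28 ± 0.09 (n = 3, adjusted p = 0.586) at 18 h and at -0.19 ± 0.05 (adjusted p = 0.504) over the times, and was negative in 9 of 9 pairs. Of all 1362 probes 0.294% were negative in every measured pair. The highest of this list at 18 h was the phagocyte oxidase gene Ncf4, at 0.12 ± 0.06 (n = 3, adjusted p = 0.691). At 72 h it was Mpo, at 0.29 ± 0.11 (adjusted p = 0.877), lower in 1 pair and higher in 2. Mpo is a neutrophil peroxidase, which uses peroxide and does not produce it. Cyba, another oxidase subunit, stood at 0.03 ± 0.04 (adjusted p = 0.837) over the times, with 6 pairs lower and 6 higher. Methionine sulfoxide reductases other than Msrb1 had 1 probe for 3 genes, which was not tested, and Sod2, Sod3 and Ccs had no matched probe.

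Markers of other liver cells, none of which passed the test, were read beside these ratios. Kupffer cell and macrophage markers had probes for 8 of 14 genes, and 6 of 6 tested at 18 h were positive (median 0.07), 5 of 6 at 72 h (median 0.06) and 3 of 4 at 192 h (median 0.03). By pair their median ran from -0.11 to 0.46. The highest was replicate 1 at 192 h (3 probes), the pair in which Srxn1 and Cat were lowest. Hepatocyte markers had probes for only 3 of 16 genes (Pck1, Hnf4a and F2), while albumin and most other defining hepatocyte genes had no matched probe, so the labelled tissue could be checked only through these. At 18 h Pck1 stood at -0.49 ± 0.20, Hnf4a at -0.04 ± 0.07 and F2 at -0.01 ± 0.07. Of these markers 2 of 3 were negative at 72 h (median -0.02) and 1 of 2 at 192 h (median 0.02). By pair their median ran from -0.62 in replicate 4 at 18 h to 0.12 in replicate 3 at 72 h, each over 2 probes. At 192 h it was -0.25 in replicate 1 (3 probes) and -0.30 in replicate 3 (2 probes). Cat stood at -0.60 in the former and 0.13 in the latter. So few probes are a weak measure of hepatocytes. No probe of the array passed at any time, so the neutrophil, endothelial, stellate, cholangiocyte, lymphocyte and erythroid lists had 0 past the test. For lymphocytes 0 probes were tested at 18 and 192 h, and 2 at 72 h. The cholangiocyte and erythroid lists had 1 tested at each time, and the erythroid list had 1 of 9 genes with a probe. The part of cell composition in the members' ratios was not tested.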

How the data were processed

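The samples were 24 dual-colour hybridisations of liver RNA, grouped by the time and treatment that the labels give. The members and gene lists were chosen with earlier results of these data known. The deposited series table holds the authors' log2 ratios for 10080 probes, with scale, centring and direction unstated. The deposited scanner tables, 3 scans per array, give intensity already corrected for background, the background and a saturation factor, a fraction between 0 and 1, per the file headers. The image software and the normalization: not given in the sources used here. Channel A, whose dye the files leave unnamed, was read as Cy3. Probes were named through the platform annotation by Entrez identifier (9066 with 1 symbol, 12 with several, 1002 with none, 8977 identifiers matched to RefSeq genes).

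Pair means of dye swaps were fitted with limma 3.58.1 (R 4.3.3), with a coefficient for each time over all 12 pairs and a shared spread. Missing orientations were not imputed. Two-sided p-values were adjusted (Benjamini-Hochberg) over every probe tested in a comparison, and the threshold was 0.05. Of the members 5 were tested at 18 h and 6 each at 72 and 192 h. On simulated data with 50 probes changed by each size, 60%, 56% and 56% of those raised by a log2 of 0.25 were called at 18, 72 and 192 h, and 86%, 88% and 96% of those raised by 0.5. The changed probes were all drawn from those tested at every time, with independent normal noise. Many strong changes at once make the adjustment milder. These shares therefore do not give the chance of a call in the real data, where 0 probes passed. Scanner ratios (loess, span 0.3, unsaturated scans averaged) were the alternative source, because the members are defined on the deposited table. List genes were named as the highest or lowest of a list at a time. The planned naming of probes correlated with the leading member was not possible, as 0 members had all 12 pairs. Alternatives covered background, normalization, filters, dye fitting, variance, replicate block and pairs left out.

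Whether replicate numbers pair samples across times was checked. Same-numbered pairs of different times correlated between -0.34 and 0.46 in their deviations, so the numbers were not taken to pair samples.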

Additional observations from a re-analysis of the deposited data

Results flagged for a closer look

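At 18 h the Msrb1 ratio of replicate 1, at -0.35, lay far from the other 3 pairs, which ran from -0.05 to -0.004. Both dye orientations of that pair were negative (-0.33 and -0.38). Chance alone sets a sample apart in this way in about 1 in 20 groups.

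For Gclc the complete pairs lay on opposite sides of 0 at 18 and 72 h: both at 18 h were negative (-0.13 and -0.60) and all 4 at 72 h positive (0.01 to 0.12). The means differed by 0.45 on the log2 scale, higher at 72 h. So few pairs can separate in this way by chance, and the share of all probes that do so was not counted. At 72 h the dyes disagreed in sign in replicates 1 to 3. With tumor RNA in Cy5 and in Cy3 these read 0.64 and -0.46, -0.07 and 0.30, and -0.03 and 0.04. The fit reported above, which asks for 3 pairs, did not include this contrast of 72 h with 18 h. With 2 pairs allowed, limma gave a difference of 0.45 ± 0.12 (SE, adjusted p = 0.998), and single arrays fitted with a dye coefficient gave 0.35 ± 0.17 (adjusted p = 0.999). In the scanner intensities 2 of 2 pairs were negative at 18 h and 4 of 4 positive at 72 h, with replicate 3 at 0.004. These come from the same arrays and are no separate support. Their dyes also disagreed in sign in replicates 1 to 3 at 72 h (1.24 and -0.94, -0.26 and 1.81, 0.08 and -0.07).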

How the results depend on the processing

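Over 24 settings besides the one reported, 0 member ratios passed the adjusted threshold (smallest adjusted p = 0.262), and 612 of 623 member values kept their sign. Many of these values could not change, so the count is no measure of stability. A pair left out at a time alters no ratio of the other times. The settings for variance and filters change only the errors or the probes tested. Outside the pairs left out, the sign turned for Pon3 at 192 h with background-subtracted scanner intensities (-0.014) and for Txnrd1 at 192 h with replicates 3 and 4 alone (0.012). Leaving out each pair in turn, ratios that crossed 0 ran from -0.098 to 0.027 (Srxn1 at 18 h), -0.245 to 0.065 (Cat at 192 h), -0.211 to 0.012 (Txnrd1 at 192 h), -0.106 to 0.076 (Sod1 at 192 h) and -0.026 to 0.032 (Pon3 at 192 h). Between 192 h and 18 h they ran from -0.298 to 0.011 (Srxn1), -0.126 to 0.030 (Msrb1) and -0.020 to 0.290 (Cat). Normexp background correction gave larger ratios, such as -1.44 for Pon3 and -0.70 for Txnrd1 at 18 h.

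The number of probes called over the mean of the times rose from 0 to 1 with the replicate block (Cers2, -0.28, adjusted p = 0.041) and ran from 0 to 1 over the pairs left out, with Pbld1 (-0.23, adjusted p = 0.044) called without replicate 4 at 72 h. The block changed no other call. The cause was not tested. Counts of probes with an unadjusted p under 0.05 varied more, from 9 to 460 at 18 h. A block for scan date or slide was not run, because the files used here give neither, and a mean over probes was not needed, as each member had 1 probe. Signal over background was low across the arrays (median total signal 1.55 to 2.51 times background per array).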
